A study of Mus musculus with 8 samples.

Results

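The 8 genes described here encode enzymes and regulators of cholesterol synthesis, namely Hmgcs1, Sqle, Idi1, Fdft1, Lss, Dhcr7, Insig1 and Srebf2, and every probe that the annotated matrix assigned to one of these symbols was taken. This gave 18 of the 41174 probes on the array, and 8 of the 20920 genes with a symbol. RNA of whole lung was measured on 8 two-color arrays, 4 from wild-type (WT) and 4 from Scgb3a2-transgenic (TG) mice. All mice were male C57BL/6 animals of 8 to 10 weeks, none was treated, and each array carried the RNA of a different mouse, labeled with Cy5, beside a Cy3-labeled pool that held RNA of all samples. The transgene placed the mouse Scgb3a2 cDNA under the human SP-C promoter, which drives expression in alveolar type II cells, and the transgenic mice came from the line of a single founder with high expression in the lung. The question was whether the genes of this pathway differed between untreated transgenic and wild-type lungs. In whole-lung RNA, fewer cells of a type and less RNA per cell cannot be told apart.

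Cells make cholesterol from acetyl-CoA through the mevalonate pathway and then the sterol branch that starts at squalene. The genes of the pathway are switched on together by the transcription factor SREBP2, the product of Srebf2, which waits in the membrane of the endoplasmic reticulum bound to SCAP. When sterols are scarce, the pair moves to the Golgi, SREBP2 is cut free and enters the nucleus, and when sterols are plentiful the INSIG proteins hold the pair back. In the lung, the type II cell is a known site of high lipid synthesis, since it makes surfactant, of which cholesterol is a component.

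The promoters are shown because SREBP2 and its partner factor NF-Y act on sequences close to the start of these genes. The sequences are those of RefSeq for the mouse build GRCm38.p6, 250 bases ending just before the transcription start, read 5′ to 3′ on the strand of the gene. The table held 6 of the 8 genes with 8 windows, of which 3 belonged to Dhcr7, and Sqle and Fdft1 were not matched. Capitals mark CACCCCAC (the core of the classical sterol regulatory element), CCAAT (the NF-Y box, which reads ATTGG where it lies on the other strand) and CACGTG (the palindromic E-box).
Hmgcs1 (chr13:119690101-119690350, + strand): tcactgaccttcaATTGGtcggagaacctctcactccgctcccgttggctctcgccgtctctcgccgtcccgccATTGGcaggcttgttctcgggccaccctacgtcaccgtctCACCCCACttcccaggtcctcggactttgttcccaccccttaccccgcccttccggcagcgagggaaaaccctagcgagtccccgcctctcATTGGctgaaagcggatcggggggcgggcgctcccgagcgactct
Idi1 (chr13:8885356-8885605, + strand): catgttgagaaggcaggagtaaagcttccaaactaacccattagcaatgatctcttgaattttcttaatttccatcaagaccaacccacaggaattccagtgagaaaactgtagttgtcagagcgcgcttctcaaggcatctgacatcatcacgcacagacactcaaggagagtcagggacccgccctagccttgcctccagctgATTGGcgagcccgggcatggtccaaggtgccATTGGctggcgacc
Insig1 (chr5:28071162-28071411, + strand): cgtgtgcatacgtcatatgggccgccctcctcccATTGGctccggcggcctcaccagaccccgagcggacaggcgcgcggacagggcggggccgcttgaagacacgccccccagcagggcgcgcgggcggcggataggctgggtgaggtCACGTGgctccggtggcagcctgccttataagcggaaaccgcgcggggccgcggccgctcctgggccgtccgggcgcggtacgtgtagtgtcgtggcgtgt
Srebf2 (chr15:82147019-82147268, + strand): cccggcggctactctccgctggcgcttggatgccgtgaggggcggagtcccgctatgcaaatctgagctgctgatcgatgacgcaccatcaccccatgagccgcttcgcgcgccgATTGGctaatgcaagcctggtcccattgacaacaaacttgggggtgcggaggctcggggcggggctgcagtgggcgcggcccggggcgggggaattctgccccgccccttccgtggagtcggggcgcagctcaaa

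Each motif was searched on both strands. CACCCCAC was found in 1 of the 8 windows, that of Hmgcs1, from 136 to 129 bases before the start, and in 2.58% of 32851 mouse promoter windows of the same length. CCAAT was present in 6 of the 8 windows, at least 1 for each of the 6 genes, against 33.8% of all windows. The window of Hmgcs1 held 3 of these boxes and that of Idi1 held 2, the nearer ones 45 to 41 and 14 to 10 bases before the start. CACGTG was present in the window of Insig1, from 101 to 96 bases before the start, and in 1 window of Dhcr7, against 6.02% of all windows. A match of letters is a description of these windows and not a binding site. In the same annotation Sqle spans chr15:59315092-59331193, Fdft1 chr14:63145150-63181687, Lss chr10:76531565-76557139 and Dhcr7 chr7:143823167-143848410.

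In the sample channel, all 18 probes stood well above background on 8 of 8 arrays. In the array as a whole, 32653 probes were tested, the median sample signal of an array ranged from 204 to 277.5 over a local background of 55.5 to 59, and flags removed 1.72% to 6.46% of the spots. The raw sample signals of the brightest probe of each gene ranged from 205 to 380 for Dhcr7 and from 4136.5 to 7271.5 for Srebf2 over the 8 arrays. Values below are log2 ratios of a lung over the pool, so 0 is the level of the pool, and a difference is the mean of the TG lungs minus that of the WT lungs. The transgene target, Scgb3a2, had a ratio of −0.09 ± 0.51 in WT and 0.79 ± 0.33 in TG lungs (SD, n = 4 each), a difference of 0.88 with a standard error of 0.24, and its groups overlapped, with WT replicate 3 at 0.58 and TG replicate 2 at 0.47 (exact permutation p = 0.0571).

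No probe of the cholesterol genes passed a threshold for a genotype difference, which also held for most of the probes tested. Of the 18 probes, 0 passed an unadjusted p of 0.05 in limma, where 2.09% of all probes tested did, 0 passed after Benjamini-Hochberg adjustment over all 32653 probes, where 0% did, and the groups of every probe overlapped, while those of 1.98% of all probes did not. Counts of 0 among 18 probes lie close to these shares, so they do not set the genes apart from other probes. The differences ran from −0.28 to 0.17 on the log2 scale, with 8 probes higher and 10 lower in value in TG lungs. Taking the brightest probe of each gene, 4 genes were higher and 4 lower, and the median difference was 0.02, against 0.00099 for all probes. This median was 0.10 without WT replicate 3 and −0.06 without WT replicate 4, and it carried no stable sign. The 95% intervals of the fold of TG over WT together spanned 0.661 to 1.35 for the brightest probes and 0.611 to 1.35 for all 18 probes.

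**Figure D1:**
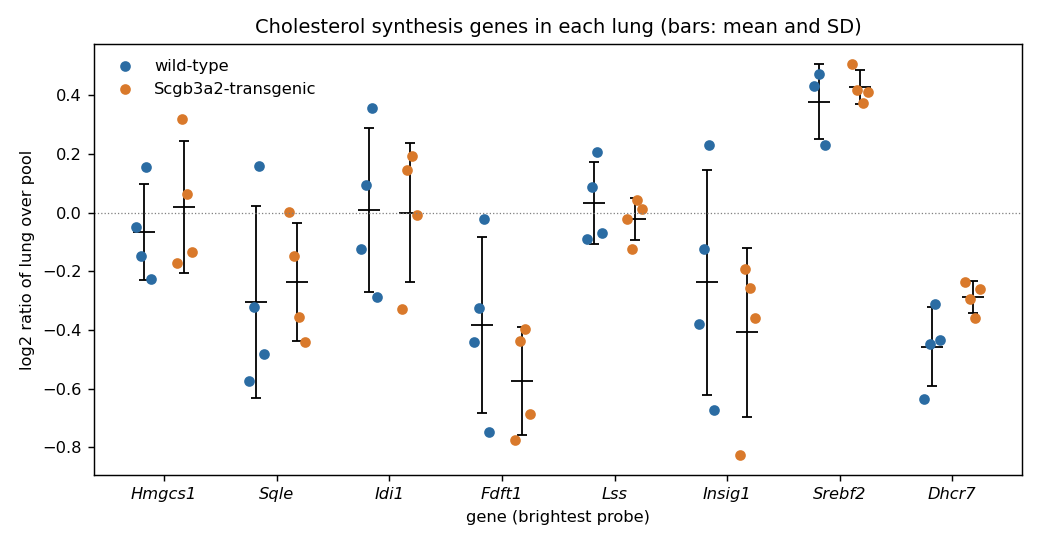
Log2 ratio of lung over pool for the brightest probe of each of the 8 genes, 1 point per lung, with the mean and SD of each genotype (WT blue, TG orange, n = 4, but 3 WT lungs for Srebf2). The points of the 2 genotypes overlap for all 8 genes, and the WT points of Sqle, Fdft1 and Insig1 are spread wider than the TG points.

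Hmgcs1 encodes the cytosolic HMG-CoA synthase, which makes HMG-CoA early in the mevalonate pathway. Its brightest probe, A_51_P146941, had log2 ratios of −0.05, −0.15, 0.16 and −0.22 in WT replicates 1 to 4 and of −0.17, 0.32, 0.06 and −0.14 in TG replicates 1 to 4. The highest lung was TG replicate 2 and the lowest WT replicate 4, and both genotypes had values on either side of the pool. The difference was 0.09 with a standard error of 0.13 (fold 1.06, 95% interval 0.867 to 1.30, exact permutation p = 0.6).

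Idi1 encodes isopentenyl diphosphate isomerase, which interconverts the isoprene building blocks. The log2 ratios of its brightest probe were −0.12, 0.09, 0.36 and −0.29 in WT replicates 1 to 4 and −0.33, 0.15, 0.19 and −0.01 in TG replicates 1 to 4. WT replicate 3 was highest and TG replicate 1 lowest. The means were nearly equal, with a difference of −0.0089 and a standard error of 0.16 (fold 0.994, 95% interval 0.781 to 1.26).

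Fdft1 encodes squalene synthase, the enzyme that commits farnesyl diphosphate to sterols. The ratios of its brightest probe were below the pool in every lung, at −0.44, −0.32, −0.02 and −0.75 in WT replicates 1 to 4 and at −0.78, −0.44, −0.40 and −0.69 in TG replicates 1 to 4. WT replicate 3 again stood highest, and the lowest lungs were TG replicate 1 and WT replicate 4. The difference was −0.19 with a standard error of 0.15 (fold 0.876, 95% interval 0.693 to 1.11, exact permutation p = 0.314).

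Sqle encodes squalene epoxidase, which performs the first oxygenation of the sterol branch and is a control point of it. Its single probe read −0.58, −0.32, 0.16 and −0.48 in WT replicates 1 to 4 and 0.0017, −0.15, −0.36 and −0.44 in TG replicates 1 to 4. WT replicate 3 was the highest lung and WT replicate 1 the lowest, so the WT lungs enclosed all TG values. The difference was 0.07 with a standard error of 0.16 (fold 1.05, 95% interval 0.818 to 1.35).

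Lss encodes lanosterol synthase, which closes the ring system. Its brightest probe varied little, with −0.09, 0.09, 0.21 and −0.07 in WT replicates 1 to 4 and −0.02, −0.12, 0.04 and 0.01 in TG replicates 1 to 4. The TG values lay within or just below the WT range, and WT replicate 3 was highest. The difference was −0.06 with a standard error of 0.10 (fold 0.962, 95% interval 0.823 to 1.12).

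Dhcr7 encodes 7-dehydrocholesterol reductase, the last step of one branch of the pathway, whose substrate is also the precursor of vitamin D. Its brightest probe was below the pool in every lung, at −0.64, −0.45, −0.31 and −0.43 in WT replicates 1 to 4 and at −0.24, −0.29, −0.36 and −0.26 in TG replicates 1 to 4. The 3 highest lungs were transgenic, and TG replicate 3 lay below WT replicate 3. The difference was 0.17 with a standard error of 0.10 (fold 1.12, 95% interval 0.966 to 1.31, exact permutation p = 0.0571, where 4 against 4 lungs cannot go below 0.0286). On each of the 4 slides, which carried 1 lung of each genotype, the TG lung was the higher, by 0.05 to 0.40, and the second probe of the gene was higher in TG on 2 of the 4 slides.

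Insig1 encodes a membrane protein that retains SCAP and SREBP2 in the endoplasmic reticulum, and it is itself a target of SREBP. It was the most variable of the brightest probes, with −0.38, −0.12, 0.23 and −0.67 in WT replicates 1 to 4 and −0.83, −0.19, −0.26 and −0.36 in TG replicates 1 to 4. Its SD over the 8 lungs was 0.33, larger than that of 92.6% of the probes tested, and WT replicate 3 was the single lung above the pool. The difference was −0.17 with a standard error of 0.19 (fold 0.888, 95% interval 0.661 to 1.19, exact permutation p = 0.486).

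The brightest probe of Srebf2 was above the pool on all 7 arrays with a value, at 0.43, 0.47 and 0.23 in WT replicates 2 to 4 and at 0.51, 0.42, 0.37 and 0.41 in TG replicates 1 to 4. The spot of WT replicate 1 was flagged and left out of the fit. WT replicate 4 was the lowest lung and the others lay close together, with an SD of 0.09 over the 7 arrays. The difference was 0.05 with a standard error of 0.11 (fold 1.04, 95% interval 0.876 to 1.22).

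The probes of a gene did not always rank the genotypes alike. For Hmgcs1, Lss and Srebf2, which had 3, 2 and 4 probes, the sign of the difference changed from probe to probe, from −0.10 to 0.09 for Hmgcs1, from −0.06 to 0.09 for Lss and from −0.14 to 0.15 for Srebf2. The second probe of Insig1, A_52_P393392, had the largest difference of the 18, −0.28 with a standard error of 0.20, and its highest lung was WT replicate 3 at 0.79. The second probe of Idi1, A_52_P441634, ran over 1.25 on the log2 scale between the lowest and the highest lung, from −1.10 in WT replicate 4 to 0.15 in WT replicate 3, and its difference was −0.20 with a standard error of 0.23. With another choice of background correction, normalization, probe or lungs, the sign for Hmgcs1, Sqle, Idi1, Lss and Srebf2 could turn, whereas that of Fdft1, Insig1 and Dhcr7 did not in the 24 alternatives run. The size depended on single lungs for Fdft1 and Insig1, which were at −0.07 and −0.02 without WT replicate 3 and at −0.31 and −0.32 without WT replicate 4, and Insig1 was at −0.03 without TG replicate 1.

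**Figure D2:**
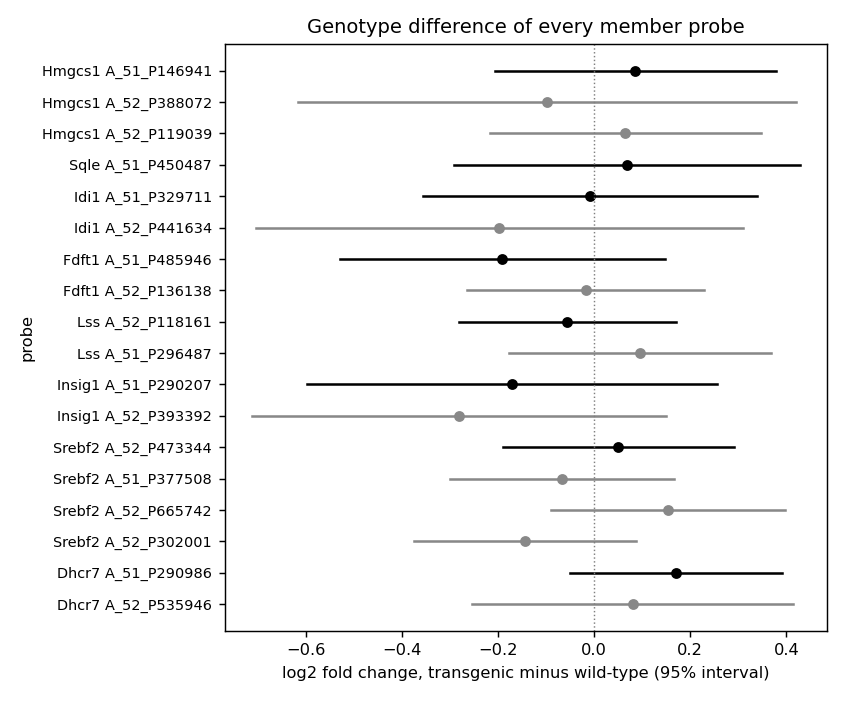
Difference of TG minus WT (log2) with its 95% interval for all 18 probes, the brightest probe of each gene in black and the others in gray. Every interval crosses 0, and the probes of Hmgcs1, Lss and Srebf2 lie on both sides of it.

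The 8 genes varied between lungs of the same genotype. The ratios of each gene were set to a mean of 0 over the lungs and averaged over the 8 genes. In this mean WT replicate 3 stood at 0.29 and WT replicate 4 at −0.20, the highest and the lowest lung, with WT replicates 1 and 2 at −0.12 and 0.04. The TG lungs lay between them, at −0.10, 0.09, 0.04 and −0.05 in replicates 1 to 4. With these values the WT lungs covered a 1.41-fold range and the TG lungs a 1.14-fold range, with means that were almost equal. WT replicate 3 was above the gene's own mean for 8 of 8 genes and was the highest lung for 5 of them and for 11 of the 18 probes, and WT replicate 4 was above it for 0 of 8. The same shares over all probes were not counted. The SD was larger in WT than in TG lungs for 7 of the 8 genes, against 48.3% of all probes. Without WT replicate 3 it was larger for 4 of the 8, against 41.5% of all probes. Of the alternatives, 10 changed these lung values while keeping all lungs. WT replicate 3 was the highest lung in 9 of the 10, the exception being median-centring in place of loess, where it stood at 0.16 and WT replicate 2 at 0.21. WT replicate 4 was the lowest lung in 6 of the 10. TG replicate 1 was lowest instead with Agilent processed signals and the authors' matrix, at −0.21 in both, and with median-centring, at −0.29, and WT replicate 1 was lowest with the sample channel alone, at −0.23. With median-centring the ranges came close to each other, at 1.34-fold in WT and 1.30-fold in TG lungs. WT replicate 1 stood at 0.13 with the background fit on all spots and at 0.11 with flagged spots kept.

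**Figure D3:**
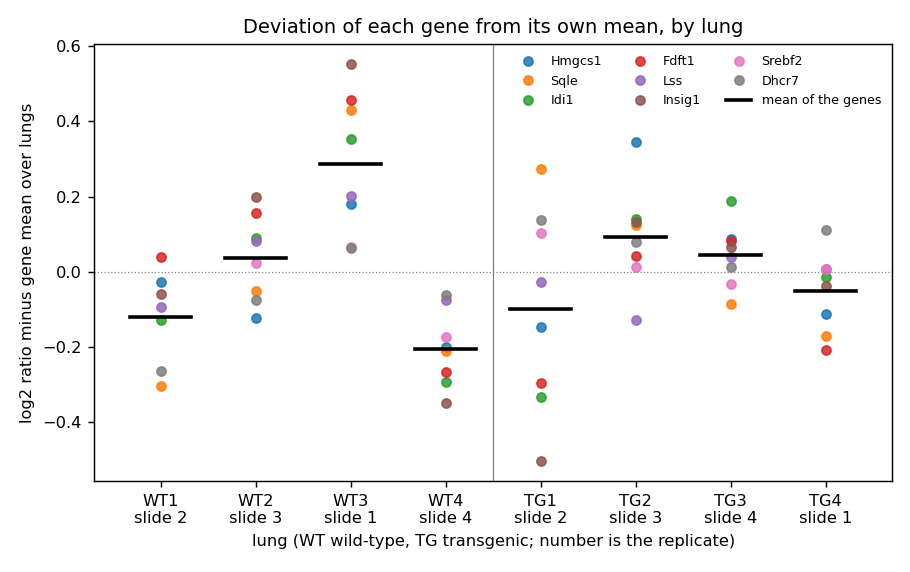
Deviation of each gene's log2 ratio from its own mean over the lungs (points, 1 color per gene) and the mean of the genes (bar), for the 4 WT and 4 TG lungs with the slide each was on. WT replicate 3 is the lung where all 8 points lie above 0 and WT replicate 4 the lung where all 8 lie below.

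The slides reflected this. On slide 1, which held WT replicate 3 and TG replicate 4, the TG lung was lower for 7 of the 8 genes with a median difference of −0.33, and on slide 4, which held WT replicate 4 and TG replicate 3, it was higher for 8 of 8 with a median of 0.21. On slides 2 and 3 the TG lung was higher for 3 of 7 and for 4 of 8 genes, with medians of −0.12 and 0.02. Over all probes the TG lung was the higher one for 47.6% to 52.3% of them on the 4 slides.

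Several of the genes varied in parallel over the lungs, which is given as a description, since all values come from the same 8 arrays and share their normalization. Over the 28 pairs of genes the median Pearson r was 0.43 (Spearman rho 0.42), with a range from −0.16 to 0.95, and 26 pairs were positive. The pairs that ran closest were Idi1 and Insig1 (r = 0.95, rho 0.90), Fdft1 and Insig1 (r = 0.94, rho 0.95) and Idi1 and Fdft1 (r = 0.88, rho 0.90). Without WT replicates 3 and 4 these values were 0.91, 0.85 and 0.75, while the median over the 28 pairs was 0.09 with 15 positive. These 2 lungs are the extremes of the mean of the genes, so a lower median r without them follows in part from their choice, and the 3 pairs are named because they were the closest in the same data.

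The genes whose ratios followed the mean of the 8 genes most closely over the 8 arrays were Fgfr2, a receptor for fibroblast growth factors, with r = 0.99, Bmf, a pro-apoptotic BH3-only protein, with 0.98, Ovol2, an epithelial zinc finger factor, with 0.97, and Cpne3, a calcium-dependent membrane-binding protein, with 0.96. They were the top 4 genes once the 8 genes themselves, probes without a symbol and further probes of a gene were set aside. Of the 29502 probes compared, 4.23% had an r above 0.7. Among the other genes of the pathway list, 25 had a value on all arrays, and 6 of these had an r above 0.7, among them Fdps (0.93), Mvd (0.88), Cyp51 (0.85), Srebf1 (0.73) and Pmvk (0.72). Without WT replicates 3 and 4 these were 0.81, 0.68, 0.62, 0.46 and 0.23. The median r of the 25 was 0.42, against −0.02 for all probes.

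Markers of type II cells were compared over the same lungs. The 9 markers (Sftpa1, Sftpb, Sftpc, Sftpd, Abca3, Lamp3, Slc34a2, Napsa and Etv5) were all well above background on 8 of 8 arrays, and their mean deviation was 0.21, 0.21, 0.88 and −0.39 in WT replicates 1 to 4 and −0.60, −0.01, −0.01 and −0.21 in TG replicates 1 to 4. WT replicate 3 was thus the highest lung in this list as well, while the means of the 2 lists lay on opposite sides of 0 in 3 of 8 lungs, namely WT replicate 1 and TG replicates 2 and 3. In TG replicates 2 and 3 the marker means were close to 0. In WT replicate 1 the mean of the cholesterol genes came from 7 genes, and its sign depended on the processing. It was 0.13 with the background fit on all spots, 0.11 with flagged spots kept and 0.0050 with median-centring. TG replicate 1, the lowest in the marker list, was the lowest lung for Insig1, Fdft1 and Idi1 and the highest for Dhcr7 and Srebf2. All 9 markers were lower in value in TG lungs, with a median difference of −0.50 and Abca3 at −0.01. An unadjusted p of 0.05 in limma was passed downward by 2 of the 9, against 0.974% of all probes, and 0 passed after adjustment. Lamp3 and Slc34a2 had the fewest values, from 2 and 3 WT lungs and from 3 TG lungs each. The median difference of the 8 cholesterol genes was 0.02. In WT replicate 3 the mean of the striated muscle markers was at 0.45, its highest over the lungs, and that of the endothelium markers at −0.55, its lowest. Not every marker followed these means. In this lung Acta1 had a ratio of −1.03, below its means of −0.92 in WT and −0.76 in TG lungs. Pecam1 had a ratio of 0.13, above its means of 0.09 and −0.02. The other tested markers of the 2 lists were at their highest or lowest, as the means were, in WT replicate 3. Airway epithelium markers were at 0.67 there and at 0.84 in TG replicate 1, and erythroid markers ran from −0.62 in WT replicate 4 to 1.03 in TG replicate 2. The part of cell makeup in the lung-to-lung variation was not tested.

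**Figure D4:**
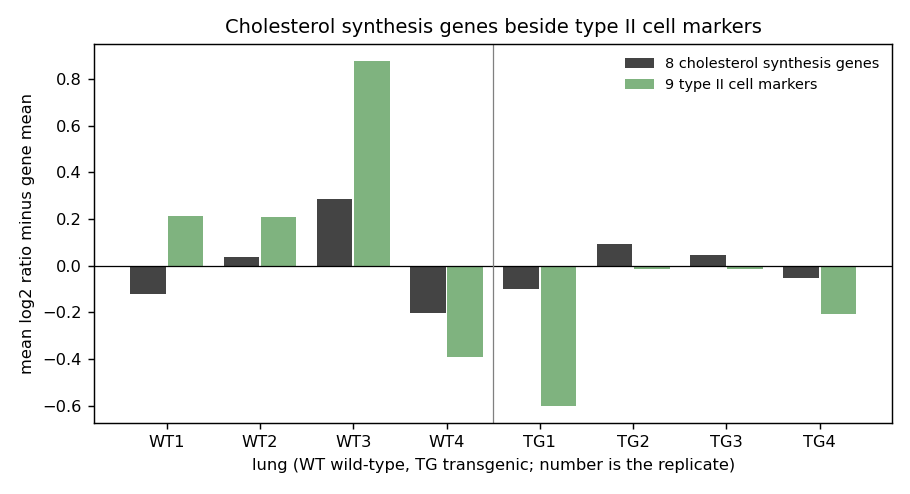
Mean deviation (log2) from the gene mean in each lung for the 8 cholesterol synthesis genes (dark bars) and the 9 type II cell markers (green bars), with WT lungs left and TG lungs right of the line. Both are highest in WT replicate 3, at 0.29 and 0.88, while in WT replicate 1 they lie on opposite sides of 0. The sign of the cholesterol genes in WT replicate 1 depended on the processing.

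The wider pathway was read from a list of 42 genes that includes the 8, of which 41 were on the array and 40 were tested. In TG lungs 19 of the 40 were higher and 21 lower in value, and the median difference was −0.01. An unadjusted p of 0.05 was passed by 0 genes upward and 1 downward, against 1.12% and 0.974% of all probes, and 0 passed after adjustment. Without the 8 genes, the list held 14 tested synthesis genes (6 higher and 8 lower), 5 of the SREBP machinery (3 and 2), 5 of uptake and intracellular transport (2 and 3) and 8 of storage, efflux and oxysterols (4 and 4).

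**Figure D5:**
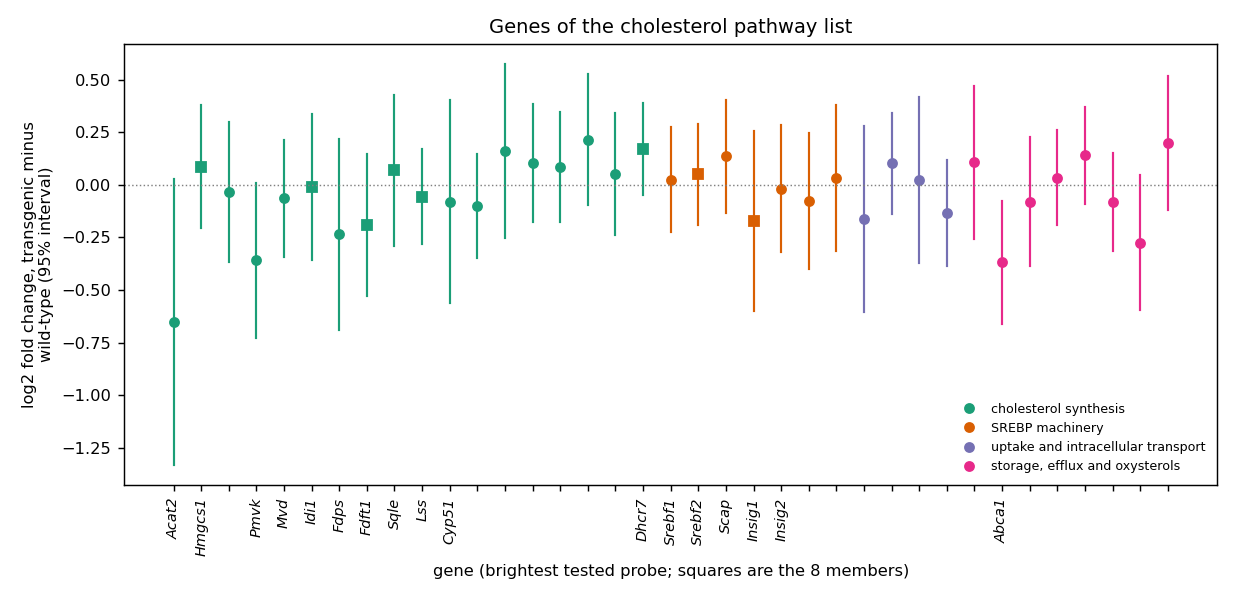
Difference of TG minus WT (log2) with its 95% interval for 37 of the 40 tested genes of the pathway list, brightest tested probe per gene, colored by role, labeled where the text names the gene, with the 8 cholesterol synthesis genes described above as squares. The interval of Abca1 alone lies wholly below 0, while that of Pmvk, at −0.36, reaches just above 0. Acat2, with values in 2 WT and 3 TG lungs, has the lowest value and the widest interval.

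The gene that passed the unadjusted threshold was Abca1, the pump that loads cellular cholesterol onto apolipoprotein A-I and thus removes cholesterol from the cell. Its ratios were 0.83, 0.29, 0.78 and 0.59 in WT replicates 1 to 4 and 0.25, 0.16, 0.45 and 0.14 in TG replicates 1 to 4. WT replicate 2 lay below TG replicate 3, so the groups overlapped, and the other 3 WT lungs were higher than every TG lung. The difference was −0.37 with a standard error of 0.13 (fold 0.774, 95% interval 0.632 to 0.948, exact permutation p = 0.0571), and the adjusted p in limma was 1.00. The unadjusted p stayed under the threshold in 20 of 24 alternatives and not with the background fit on all spots (−0.24), with flagged spots kept (−0.24), without WT replicate 1 (−0.30) or without WT replicate 3 (−0.32). Beside it, the 6 adipocyte markers were lower in value in TG lungs with a median of −0.62, their mean deviation ranged from 0.04 to 0.64 in WT and from −0.94 to 0.09 in TG lungs, and all 6 were well above background on 8 of 8 arrays. Their part in the value of Abca1, and that of the type II cell markers, was not tested.

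Among the other synthesis genes, Fdps, farnesyl diphosphate synthase, had a ratio of −0.66 ± 0.45 in WT and −0.89 ± 0.25 in TG lungs (SD, n = 4 each), and its highest lung was WT replicate 3 at −0.05 and its lowest TG replicate 1 at −1.19. Cyp51, lanosterol demethylase, was at −0.97 ± 0.52 and −1.05 ± 0.18, again with WT replicate 3 highest, at −0.37. WT replicate 3 was thus the highest lung for both genes, as for Idi1, Fdft1 and Insig1, with differences of −0.23 and −0.08 and standard errors of 0.21 and 0.22.

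No gene of the SREBP machinery passed the unadjusted threshold. Insig2, the second INSIG, differed by −0.02 with a standard error of 0.14, and Srebf1, whose product mainly drives fatty acid synthesis, by 0.02 with a standard error of 0.11. Scap, the escort of SREBP, differed by 0.14 with a standard error of 0.12 over 7 arrays.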

How the data were processed

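Lung RNA of 4 wild-type and 4 transgenic mice, grouped by the genotype in the labels, was hybridized with the sample in Cy5 and the pool in Cy3, with no dye swap. For each array the authors deposited Agilent Feature Extraction output, with median signal and background intensities per spot and channel, background-corrected and dye-normalized processed intensities and the log10 ratio of these. The version is 10.10.1.1 per the file headers and 11.0.1.1 in the submitters' processing notes. A log2 ratio matrix with 40145 rows, likewise deposited, gave the gene symbols and served as an alternative.

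In limma 3.58.1 (R 4.3.3), median signals were corrected with normexp (offset 50, fitted on unflagged spots), flagged and control spots were dropped, loess was applied within arrays, and replicate spots were averaged per probe. A probe was tested when well above background in Cy5 on at least 4 of 8 arrays with at least 2 values per genotype, which 32653 of 41174 probes were. The test was limma's moderated test, two-sided, without blocks, with Benjamini-Hochberg adjustment over all tested probes. Permutation tests were exact and two-sided. The brightest tested probe stood for a gene. Genes named were the 8 with all their probes, Cyp51, Fdps, Insig2, Srebf1 and Scap, other genes of the pathway list with an unadjusted p under 0.05, the genes closest to the mean of the 8, and Scgb3a2. Some other genes of that rule, which remain in the counts of the list, are not reported here. Acat2, Pmvk and Mvd were named after their values were seen. The genes, lists and tests were chosen with earlier results of these data known. Of the 24 alternatives, 23 were set before these fits, and the use of the brightest probe on a RefSeq mRNA was added after seeing the data. Changes between the genotypes were simulated with noise drawn independently for each of 32653 probes. At an adjusted p under 0.05 the same fit recovered 81% of 100 simulated 2-fold changes and 98% of 100 simulated 4-fold changes. The noise of the arrays need not be independent, so these shares may not hold for them. Smaller changes were not simulated, and in the arrays Scgb3a2, at 1.84-fold, did not pass the adjusted threshold. The number of arrays limits the precision. Promoter windows came from RefSeq (GRCm38.p6), and Python 3.11.15 with matplotlib 3.10.9 drew the figures.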

Additional observations from a re-analysis of the deposited data

Results flagged for a closer look

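Among 61 groups of 4 lungs examined, 1 held a lung that stood apart by Dixon's test at the 95% level, a share of 1.64%, where chance gives about 1 in 20. It was the second probe of Lss, A_51_P296487, in TG replicate 4, at a log2 ratio of −0.053. The other 3 TG lungs lay between −0.084 and −0.081 on this probe, so the TG lungs had an SD of 0.015, against 0.25 in WT lungs, and the distance is small in size.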

How the results depend on the processing

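No cholesterol probe passed an unadjusted p of 0.05 in the 24 alternatives, the methods' t-test included, and the differences of Fdft1, Insig1 and Dhcr7 kept their sign but not their size, with ranges of −0.31 to −0.07, −0.32 to −0.02 and 0.11 to 0.22 when 1 lung at a time was left out. The median difference of the 8 genes, 0.02, ranged from −0.06 (without WT replicate 4) to 0.10 (without WT replicate 3). With normexp fitted on all spots or flagged spots kept, Sqle was at −0.062 and −0.060, and the pathway list had 0 genes past the unadjusted threshold in place of 1. With median-centring in place of loess, Sqle was at −0.020, Hmgcs1 at −0.0075 and Srebf2 at −0.013, and the list had 3 genes. With the sample channel alone, Sqle was at −0.011 and the list had 2 genes. With the mean of all probes of a gene, Hmgcs1 was at −0.050 and Lss at 0.019, and with the brightest probe on a RefSeq mRNA, an alternative chosen after seeing the data, Lss was at 0.095 and Srebf2 at −0.067. Leaving out 1 lung at a time, Sqle ranged from −0.021 (without WT replicate 1) to 0.22, Hmgcs1 from −0.014 (without TG replicate 2) to 0.16, Idi1 from −0.11 to 0.11 (without WT replicate 3), Lss from −0.10 to 0.0020 (without WT replicate 3) and Srebf2 from −0.023 (without WT replicate 4) to 0.10. Without TG replicate 1, Sqle was at −0.010 and Idi1 at 0.10, and without WT replicate 2 Idi1 was at 0.019. The list then had 0 genes without WT replicate 1 or 3, 3 without WT replicate 4 and 2 without TG replicate 4. With slide as a block the list had 2 genes. Over all probes, the 684 past the unadjusted threshold ranged from 294 (sample channel alone) to 1215 (slide as a block), with 391 under normexp fitted on all spots, 344 with flagged spots kept, 1175 without WT replicate 4, 1073 without TG replicate 1 and 1037 without TG replicate 4. The causes were not tested.

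The deviations of lungs with the same replicate number correlated at 0.32, 0.25, −0.08 and −0.21 for numbers 1 to 4, and 2 of 4 lungs matched their own number best. These were numbers 1 and 2, whose WT and TG lungs shared slide 2 and slide 3. The lungs of numbers 3 and 4 lay on different slides, 1 and 4. Pairing by replicate number and by slide cannot be told apart for numbers 1 and 2. With the replicate block the pathway list had 3 genes past the unadjusted threshold and the cholesterol probes 0, and all probes 885. With 4 lungs per genotype, the median standard error of a difference was 0.13 on the log2 scale.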
